A study of Mus musculus with 9 samples.

Results

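The small RNA of exosomes from untreated RAW264.7 cells was measured in 3 libraries, numbered 1, 2 and 3 here as in their labels. They are the control libraries of a series of 9, chosen by their titles alone, and the other 6, from cells exposed to silica, were not used. RAW264.7 is an established mouse macrophage-like line that grows in culture, so the libraries stand for 1 line rather than for macrophages of an animal. The cells carried no treatment and were kept in DMEM supplemented with 10% serum (fetal bovine). Their exosomes were isolated by ultracentrifugation, and total RNA taken with Trizol was made into BGISEQ-500 small RNA libraries. The series' text calls the repetitions independent but does not say whether they were separate cultures, so the spread given here is that between these libraries and may be partly technical. The culture time of the untreated cells and whether the serum had been freed of its own vesicles are not known from the labels.

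Exosomes are small vesicles that cells release when endosomal compartments fuse with the plasma membrane, and they carry RNA from the parent cell. A microRNA (miRNA) is cut from a hairpin precursor as a duplex of a 5p and a 3p arm; one arm, the guide, is kept in an Argonaute protein and the other, the passenger, is mostly degraded. The guide recognises messenger RNAs mainly through its seed, here bases 2 to 8 from the 5′ end, so miRNAs that share a seed form a family with overlapping targets. In macrophages miR-155, miR-146a and miR-21a are known as regulators of inflammatory signalling, and miR-223 and miR-142 mark cells of the blood lineage.

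The sequences below are the leading mature miRNAs, shown because together they make up most of the miRNA counts, with the seed in capitals. They are RefSeq sequences of the mouse assembly GRCm38.p6, and 775 of the 901 listed miRNA names, 19 of the 20 most abundant among them, matched an entry.
miR-99a-5p: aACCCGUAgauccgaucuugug
let-7c-5p: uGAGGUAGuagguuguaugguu
let-7i-5p: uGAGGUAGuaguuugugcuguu
let-7b-5p: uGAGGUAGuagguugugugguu
let-7k: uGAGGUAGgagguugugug
miR-23a-3p: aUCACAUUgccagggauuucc
miR-27a-3p: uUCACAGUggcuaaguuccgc
miR-27b-3p: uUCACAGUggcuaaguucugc
miR-24-3p: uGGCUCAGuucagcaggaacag
miR-146a-5p: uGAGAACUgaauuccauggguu
miR-7a-5p: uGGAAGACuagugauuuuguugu
miR-21a-5p: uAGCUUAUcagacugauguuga
miR-222-3p: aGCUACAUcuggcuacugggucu
miR-92a-3p: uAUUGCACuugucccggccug
miR-16-5p: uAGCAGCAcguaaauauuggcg

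Of these, miR-27a-3p and miR-27b-3p have one seed and differ by the single substitution C19U, counted from 1 at the 5′ end of miR-27a-3p. Against let-7c-5p, let-7b-5p differs by A17G, let-7i-5p by G12U, A17G, U18C and G19U, and the shorter let-7k, of 19 rather than 22 bases, by U9G and A17G. The miR-23a seed and the miR-27 seed begin with the same 5 letters, UCACA, and differ only in the letter that follows them.

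In units of 1000000 reads, counted reads came to 15.1, 14.4 and 11.2 in libraries 1, 2 and 3, of which 5712322, 5043493 and 4414054 were counts of mature miRNAs. Levels of miRNAs are given as counts per 1000000 mature miRNA counts (CPM), in the order of libraries 1, 2 and 3, and were not divided by length because miRNAs of 21 to 23 bases held 96.9% ± 0.930 (SD, n = 3) of the counts with a matched sequence. A count of 0 allows up to 0.525, 0.595 and 0.680 CPM in the 3 libraries, taking 3 counts as the floor, which covers counting error only. Library 2 stood apart from the other two. Over the 145 miRNAs with a mean of at least 100 CPM, the median fold difference between libraries 1 and 3 was 1.46, against 2.05 between libraries 1 and 2 and 2.06 between libraries 2 and 3. Each pair differed far beyond counting error, with a chi-square per degree of freedom of 996.1 in the closest pair, so none is a repeat deposit of another.

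The mature miRNA cargo was dominated by few sequences. The 20 most abundant of 901 listed miRNAs held 78.8% ± 4.24 of mature counts (SD, n = 3), the first 50 held 95.4% ± 1.41 and the first 100 held 98.6% ± 0.492. The 10 most abundant held 60.8%, 50.02% and 59.8%, lowest in library 2, with a mean of 56.9% ± 5.98 and of 60.6% without library 2. Beyond them was a long tail: 459 names were listed in all 3 libraries and held 99.95% of mature counts or more in each, 158 were listed in 2 libraries and 284 in 1. Libraries 1 and 3 alone had 481 names in common. Of those seen once, 234 were in library 2, where their median count was 2. Library 2 listed 829 miRNAs against 573 and 575, but with at least 10 counts the numbers were 435, 438 and 408, in libraries 2, 1 and 3. Thinned to the mature total of library 3, libraries 1 and 2 still listed 567 and 807 names, so the difference in depth does not remove the longer list of library 2.

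The first place went to miR-99a-5p, a member of the miR-99/100 family, at 55427, 82406 and 95596 CPM, a mean of 77810. Its nearest neighbour, let-7c-5p, stood at 92694, 54015 and 83363 CPM, above miR-99a-5p in library 1 and below it in libraries 2 and 3. Both are encoded in 1 cluster on chromosome 16 (GRCm38.p6): Mir99a at 77598936 to 77599000, in an intron of the host transcript Mir99ahg, and Mirlet7c-1 at 77599657 to 77599750. let-7c-5p has a second hairpin, Mirlet7c-2, on chromosome 15 at 85706603 to 85706697, beside Mirlet7b at 85707319 to 85707403, and the counts do not tell which of the hairpins gave the reads.

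The miR-23a, miR-27a and miR-24-2 hairpins lie within 1 short stretch of chromosome 8, at 84208518 to 84208592, 84208672 to 84208758 and 84208815 to 84208921, and all 3 mature products were among the 5 most abundant miRNAs. miR-23a-3p was at 52758, 98597 and 47955 CPM and was the most abundant miRNA of library 2. miR-27a-3p was at 43872, 72191 and 71467 CPM. miR-24-3p was at 113918, 24847 and 24084 CPM, the most abundant miRNA of library 1 and 4.73-fold below that in library 3, with a mean of 54283 ± 51647 (SD, n = 3), so its mean rank rests on library 1. The 3 products of the cluster therefore did not follow one order: miR-24-3p was highest of the 3 in library 1 and lowest in libraries 2 and 3. miR-24-3p is also made from Mir24-1 on chromosome 13, at 63301208 to 63301275, in an exon of 2010111I01Rik, which carries Mir27b at 63300712 to 63300784 as well. miR-27b-3p was at 36289, 35861 and 74946 CPM, high in library 3 alone.

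miR-146a-5p, which dampens signalling downstream of Toll-like receptors, was at 66916, 22687 and 70457 CPM. Its gene, Mir146, is on chromosome 11 at 43374397 to 43374461, between annotated genes. miR-7a-5p, whose Mir7-1 hairpin is in an intron of Hnrnpk, was at 73348, 14872 and 50151 CPM. Both were lowest in library 2. miR-21a-5p, from an exon of Vmp1 at chromosome 11, 86584067 to 86584158, was at 30942, 63578 and 31098 CPM, and was highest in library 2. miR-222-3p, from chromosome X at 19146893 to 19146971, was at 42264, 31192 and 49335 CPM, and had the lowest coefficient of variation (CV, SD over mean) of the first 10, at 0.223.

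Ranks 11 to 20 ran from 32729 down to 14801 CPM on average. let-7i-5p was at 27840, 33567 and 36780 CPM and miR-92a-3p at 20648, 28156 and 25595 CPM, both close in the 3 libraries. For miR-92a-3p, the Mir92-1 hairpin lies in the miR-17-92 host transcript Mir17hg and the Mir92-2 hairpin on chromosome X. miR-378a-3p at 18047, 37026 and 9178 CPM and miR-16-5p at 8030, 38044 and 10449 CPM were high in library 2. let-7k at 21387, 7371 and 15650 CPM and miR-1198-5p at 22621, 6550 and 15230 CPM were low in it. The remaining 4, let-7b-5p, miR-22-3p, miR-34a-5p and miR-191-5p, had means between 15894 and 28524 CPM.

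The order of the first 20 is not resolved step by step. None of the 19 pairs of neighbours differed in mean by more than the larger of their SDs, and none kept one order in all 3 libraries. Among the first 10, 11 of 45 pairs kept one order in all 3. The number among the first 10 of every library was 5: miR-99a-5p, let-7c-5p, miR-23a-3p, miR-27a-3p and miR-27b-3p. In all, 15 miRNAs were among the first 10 of at least 1 library, and 13 were among the first 20 of all 3.

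**Figure D1:**
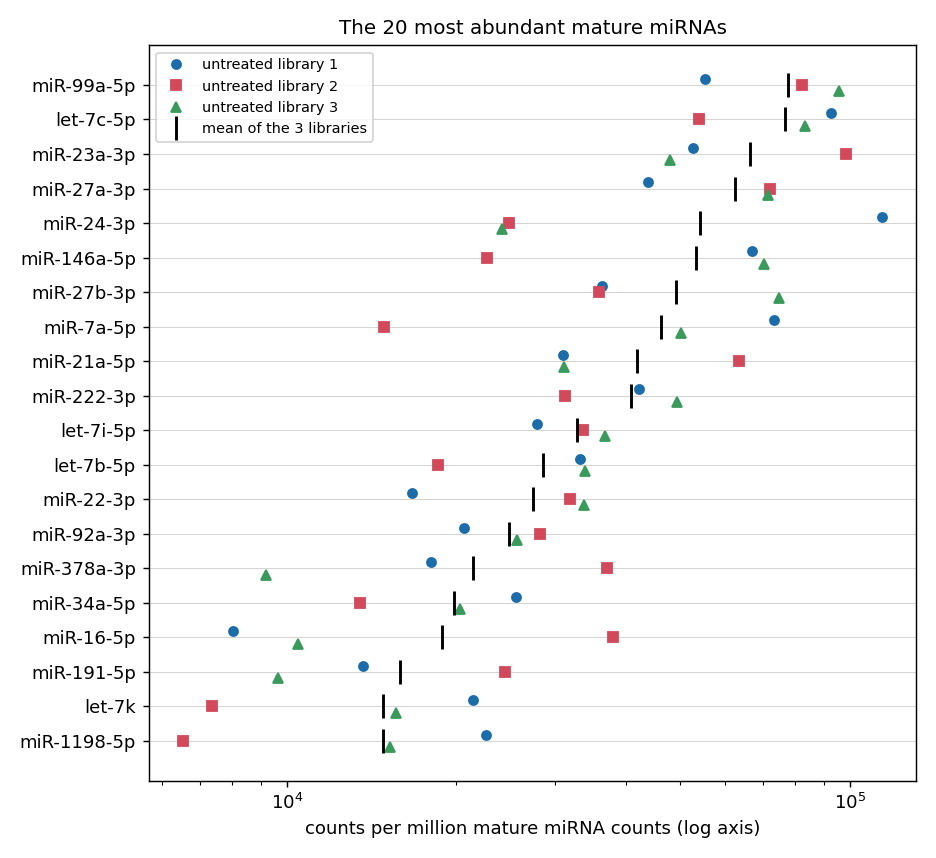
Levels of the 20 most abundant mature miRNAs in exosomes of untreated cells, in CPM on a log axis, with 1 marker for each of the 3 libraries and a vertical bar at their mean. The markers of neighbouring miRNAs overlap, and miR-24-3p reaches 113918 CPM in library 1 but lies at 24847 and 24084 CPM in libraries 2 and 3.

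Grouped by seed, 10 families held 73.5% ± 5.59 of mature counts (SD, n = 3), with 76.5%, 67.03% and 76.9% in libraries 1, 2 and 3. Of 667 seeds among the matched names, 18 held 1% or more. Names without a matched sequence held 3.65%, 6.45% and 3.08% of mature counts and are in no family. Among them was miR-378a-3p, at 2.14% on average, so the ranks of families hold for matched names only. The let-7 seed, GAGGUAG, came first with 21.1%, 15.4% and 20.5%, a mean of 18.98% ± 3.09 and of 20.8% without library 2. Its 10 members were the 5p arms of let-7a, b, c, d, e, f, g and i, with let-7k and miR-98-5p. The let-7 family represses growth-promoting genes and is high in differentiated cells. let-7c-5p gave 44.01%, 35.001% and 40.7% of the family, ahead of let-7i-5p and let-7b-5p in each library. let-7a-5p and let-7f-5p were among the 10 steadiest miRNAs of the cargo: let-7a-5p at 10447, 9266 and 10832 CPM, which differs from let-7c-5p by G19A, and let-7f-5p at 5735, 6598 and 6323 CPM, which differs by G12A and G19A.

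The miR-27 seed, UCACAGU, held 8.02%, 10.8% and 14.6% of mature counts, 11.2% ± 3.33 on average and highest in library 3. The miR-99/100 seed, ACCCGUA, held 5.91%, 8.59% and 9.97%, of which miR-99a-5p gave 95.4% of the family over the 3 libraries. miR-23a-3p and miR-24-3p were the only matched names with their seeds and held 6.64% ± 2.80 and 5.43% ± 5.16. miR-23b-3p, at 1743, 6394 and 1096 CPM, had no matched sequence and is in no seed share, so miR-23a-3p need not be alone in its family. The miR-146 seed, GAGAACU, held 6.75%, 2.38% and 7.08%, and the miR-7 seed, GGAAGAC, held 7.335%, 1.49% and 5.02%, both low in library 2 and both almost wholly from 1 member.

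In the miR-221/222 family, which acts on regulators of the cell cycle, the sum was steadier than the members. The seed, GCUACAU, held 4.67%, 5.81% and 5.58%, with a CV of 0.112. Within it miR-222-3p gave 90.4%, 53.7% and 88.5% of the counts, and miR-221-3p was at 4474, 26922 and 6439 CPM, highest in library 2. The hairpins are neighbours on chromosome X, and the mature sequences, compared here because they share the seed but little after it, differ at 12 positions.
miR-222-3p: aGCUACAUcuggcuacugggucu
miR-221-3p: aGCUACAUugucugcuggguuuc
The miR-92/25 seed, AUUGCAC, was as even at 3.03%, 3.81% and 3.82%, with miR-92a-3p and miR-25-3p as its leading members. The miR-181 seed, ACAUUCA, at rank 14 among families of matched names, was the most even of the first 14. It held 2.05%, 1.78% and 1.79%, a CV of 0.0835. The miR-15/16 seed, AGCAGCA, varied most by fold among the 14, at 0.986%, 5.06% and 1.30%. Over the 10 leading families the median CV of the family sum was 0.359 and that of the leading member 0.342. Over up to 3 leading members of each family it was 0.416. In 3 of the 10 families 1 matched name is the whole sum, and others rest almost wholly on 1 member. These medians therefore do not decide whether summing over a seed lowers the spread.

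**Figure D2:**
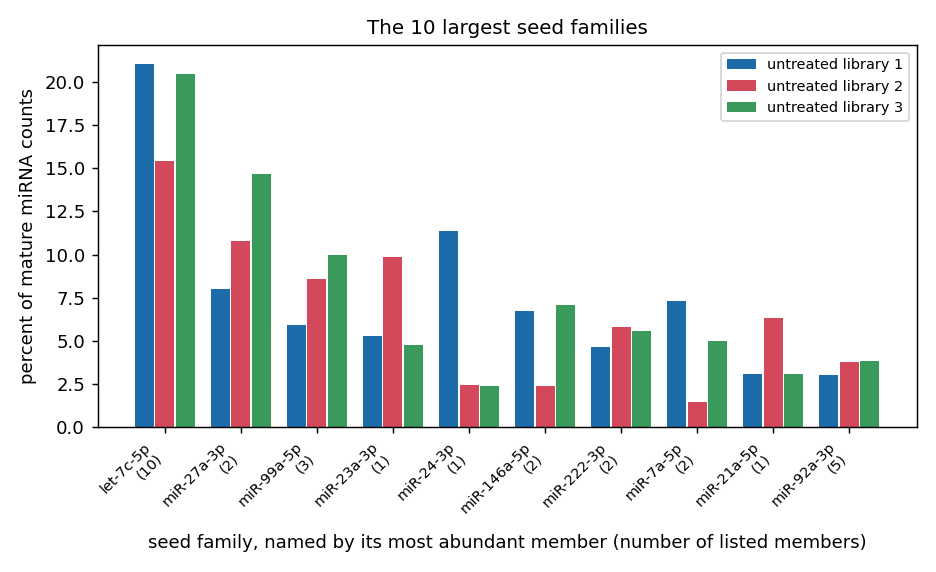
Share of mature miRNA counts, in percent, held by each of the 10 leading seed families, with 1 bar for each of the 3 libraries. The number of listed members with a matched sequence is in brackets. The let-7 family leads with 15.4% to 21.1%, and the miR-24 family is spread from 2.41% to 11.4%.

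In sum, the more abundant arm of each hairpin made up nearly all of the counts of names with an arm. Summed over all hairpins, the less abundant arm of each came to 1.03%, 1.53% and 1.21% of mature counts. The arms were ranked by these same counts, so this share is low in part by construction and does not measure guides. By position, 5p arms held 57.9%, 52.1% and 57.9% and 3p arms 39.2%, 46.4% and 40.05% of the mature counts. Of 306 hairpins with at least 20 counts, the 5p arm was the more abundant in 193 and the 3p arm in 113, and in 74 hairpins 1 arm alone was listed. Against a list of 74 arms known from general knowledge as the guide, the guide was the more abundant arm in 67 hairpins over the 3 libraries and in 64 in each of the 3. The median share of the other arm in these hairpins was 1.06%, and in 5 of them it had no count.

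The 20 leading miRNAs include 19 with a named arm, and in their hairpins the other arm never exceeded 2.33% of the hairpin's mature counts. It was under 1% in each library in 16 of the 19, the exceptions being miR-7a at 0.548%, 2.33% and 1.24%, miR-222 at 1.00%, 0.552% and 1.14%, and miR-191 at 1.05%, 0.391% and 2.14%. At such depth a small share can still be many reads: miR-7a-3p had 2307, 1787 and 2771 counts and miR-222-5p 2440, 873 and 2501. The passenger was rarest in miR-146a and miR-34a, at 0, 3 and 1 counts for miR-146a-3p and 0, 9 and 0 for miR-34a-3p. miR-146a-3p was thus at or under the floor in every library. Reads given to precursor families of the Rfam database carry no arm and are outside these shares. Such reads were 21.7%, 11.02% and 48.7% of precursor and mature counts for mir-23. For mir-221, which includes miR-222, they were 29.6%, 24.7% and 33.98%.

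The 7 hairpins in which the listed guide was not the more abundant arm were miR-30a, miR-30e, miR-423, miR-107, miR-106b, miR-132 and miR-29b. The miR-30 pair is shown because the same arm led in both hairpins and in every library.
miR-30a-5p: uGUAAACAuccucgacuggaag
miR-30e-5p: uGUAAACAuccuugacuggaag
miR-30a-3p: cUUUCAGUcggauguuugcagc
miR-30e-3p: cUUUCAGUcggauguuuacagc
miR-30a-3p had 6465, 3426 and 4018 counts against 1019, 1657 and 1401 for miR-30a-5p. miR-30e-3p had 1245, 941 and 691 counts against 74, 246 and 92 for miR-30e-5p. The 3p arms differ from each other by G18A, the 5p arms by C13U, and the reads of such near-copies may be split between names. A further 19348, 15166 and 17610 counts went to the mir-30 precursor family of the Rfam database, for which no arm is given. These were 46.5%, 38.7% and 44.3% of the precursor and mature counts of that family, so the 3p lead holds for mature names only. For miR-423 the 3p arm had 26663, 29342 and 13782 counts against 3640, 2159 and 6444 for the 5p arm. For miR-107 the 5p arm had 16, 54 and 13 counts and the 3p arm 3, 28 and 0, so both were rare. For miR-106b, miR-132 and miR-29b the leading arm differed between libraries.

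Of 90 hairpins with at least 100 counts on each arm, the median share of the less abundant arm was 10.1%. It was under 1% in 21 and over 25% in 23. The leading arm differed between libraries in 15, but between libraries 1 and 3 in only 4, miR-17, miR-29b, miR-30c and miR-339. In the other 11 library 2 had the opposite leading arm from both, the 3p arm in 5 and the 5p arm in 6. Towards the 3p arm, the 3p share was 28.8%, 83.01% and 21.8% for miR-132, 7.81%, 66.7% and 7.58% for miR-744, 4.89%, 74.6% and 19.8% for miR-193a, and 0.565%, 95.02% and 4.24% for miR-3074. Towards the 5p arm, it was 83.02%, 12.8% and 77.4% for miR-219a, 80.4%, 24.9% and 56.5% for miR-450b, and 51.7%, 20.3% and 52.97% for miR-674. These 7 were picked for their size after their values were seen. For miR-3074, names of both arms are complementary to miR-24 names over 20 bases. Its arm shares therefore depend on how reads were assigned between strands, which is not known. miR-132 is induced by inflammatory stimuli in myeloid cells. Others of the 11 had more equal arms, with a 3p share of 50.08%, 44.5% and 51.9% for miR-140 and 46.2%, 54.9% and 33.6% for miR-142a. The remaining pair was miR-106b and miR-342.

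**Figure D3:**
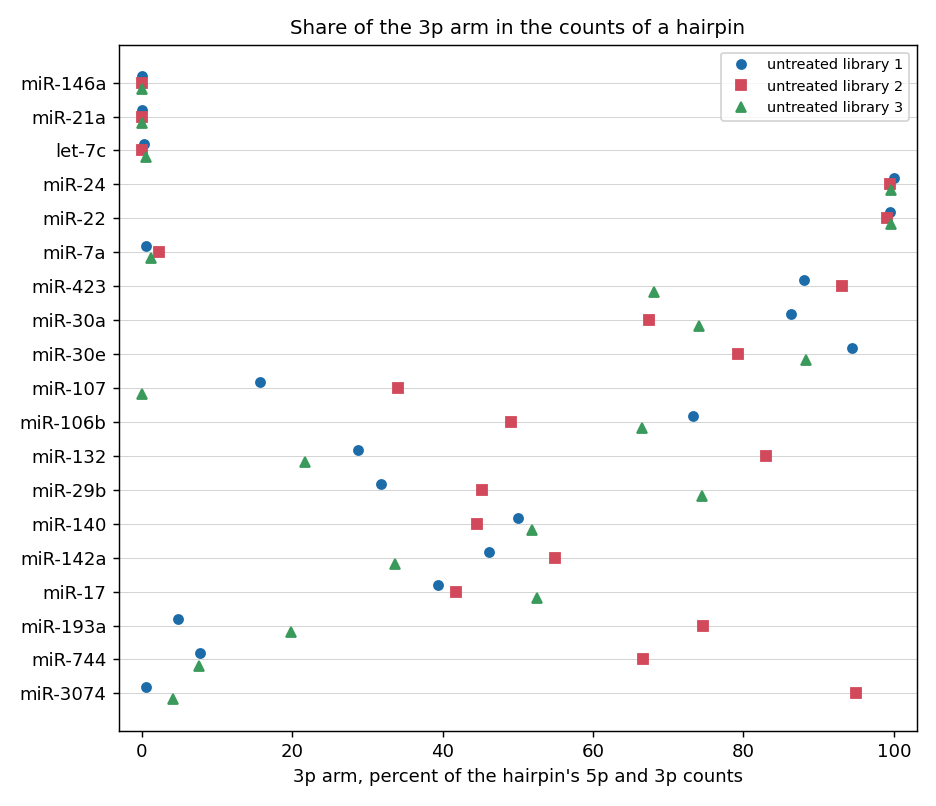
Share of the 3p arm in the 5p and 3p counts of 19 hairpins, in percent, with 1 marker for each of the 3 libraries. Leading hairpins such as miR-146a and miR-24 lie at the ends of the scale, while miR-132, miR-193a, miR-744 and miR-3074 lie above 50% in library 2 and below it in libraries 1 and 3. Names of both miR-3074 arms are complementary to miR-24 names, and strand use in counting is not known.

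Some names cannot be told apart by their sequence, or only by their strand. miR-199a-3p and miR-199b-3p share the mature sequence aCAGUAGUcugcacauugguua, printed because 1 molecule carries both names. miR-199a-3p was listed at 9.10, 31.5 and 1522 CPM and miR-199b-3p at 507, 618 and 16.8 CPM, so the reads went mostly to one name in libraries 1 and 2 and to the other in library 3. Their sum was 517, 650 and 1539 CPM, with a CV of 0.616 against 1.66 and 0.841 for the names alone. let-7a-1-3p and let-7c-2-3p share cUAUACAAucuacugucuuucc; let-7c-2-3p was at 294, 1.59 and 501 CPM and let-7a-1-3p at 15.8, 275 and 1.36 CPM, and their sum was 310, 277 and 502 CPM.

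miR-24-3p and miR-3074-5p are reverse complements of each other over 20 bases, in capitals here, because their hairpins lie on opposite strands of the same 2 loci.
miR-24-3p: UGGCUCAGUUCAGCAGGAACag
miR-3074-5p: GUUCCUGCUGAACUGAGCCAgu
miR-3074-5p was at 8379, 13.9 and 3514 CPM, highest in library 1 as miR-24-3p was, and near 0 in library 2. The sources used here do not say whether counting used the strand, so the reads of these 2 names cannot be told apart by name. miR-3074-2-3p and miR-24-2-5p were another such pair, also over 20 bases. In all, 8 pairs of listed names had such complementary sequences.

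Between libraries, the spread of single miRNAs was far larger than counting error. Among the 27 miRNAs with a mean of 10000 CPM or more the median CV was 0.350 and the CV that counting error alone gives was 0.00284. Between 10 and 100 CPM the median CV was 0.659, against 0.0856 from counting. Over the 293 miRNAs with a mean of at least 10 CPM the median CV was 0.575, and without library 2 it was 0.302. The biological coefficient of variation, edgeR's estimate of the spread beyond counting error, was 0.663 over 331 miRNAs and 0.508 without library 2. Of the 145 miRNAs with a mean of 100 CPM or more, 47 were within 2-fold in all 3 libraries, and 110 were between libraries 1 and 3.

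The 10 steadiest of these 145 were miR-99b-5p, let-7f-5p, let-7a-5p, miR-98-5p, miR-330-5p, miR-151-3p, miR-181a-5p, miR-125a-5p, miR-181b-5p and miR-155-5p. miR-99b-5p was at 3457, 3309 and 3744 CPM. miR-181a-5p, known for tuning receptor signalling in lymphocytes, was at 11703, 10615 and 9831 CPM. miR-155-5p, which activated macrophages induce, was at 726.5, 840 and 902 CPM. Each of these 3 stayed within 1.5-fold across the libraries.

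The 10 least steady were miR-199a-3p, miR-33-5p, miR-18a-5p, miR-500-3p, miR-92a-1-5p, miR-99a-3p, miR-19b-3p, miR-20a-5p, miR-103-3p and miR-15a-5p, and 9 of them were highest in library 2. The place of miR-199a-3p holds for the name only, as its sum with miR-199b-3p, of identical sequence, had a CV of 0.616. miR-33-5p, which represses cholesterol export and lies in an intron of Srebf2, was at 113, 4414 and 243 CPM. miR-19b-3p was at 396, 6549 and 973 CPM, and miR-15a-5p at 197, 3029 and 520 CPM. In each case library 2 stood over 5-fold above both others.

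Counted over the 145, library 2 was more than 2-fold above both other libraries for 41 miRNAs and more than 2-fold below both for 18. Library 1 was above both for 6 and below both for 19, and library 3 above for 5 and below for 5. The 41 held 21.7% of the mature counts of library 2. They included miR-21a-5p, miR-16-5p, miR-221-3p, miR-15b-5p and several products of the miR-17-92 cluster, which was looked at after its values were seen. Of that cluster miR-17-5p was at 96.6, 765 and 121 CPM, miR-18a-5p at 52.7, 914 and 45.3 CPM, and miR-20a-5p at 165, 1403 and 142 CPM. miR-19a-3p, at 8.58, 68.4 and 36.5 CPM, was 1.88-fold above the higher of the others in library 2. miR-92a-3p was at 20648, 28156 and 25595 CPM and so was 1.10-fold above the higher of the others in library 2. Its Mir92-1 hairpin lies in the same host transcript and its Mir92-2 hairpin on chromosome X, and the counts do not tell which gave the reads. Library 2 was low for miR-146a-5p, miR-7a-5p, let-7k, miR-1198-5p, miR-183-5p, at 6770, 3061 and 7617 CPM, and miR-365-2-5p, at 4690, 256 and 1307 CPM.

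**Figure D4:**
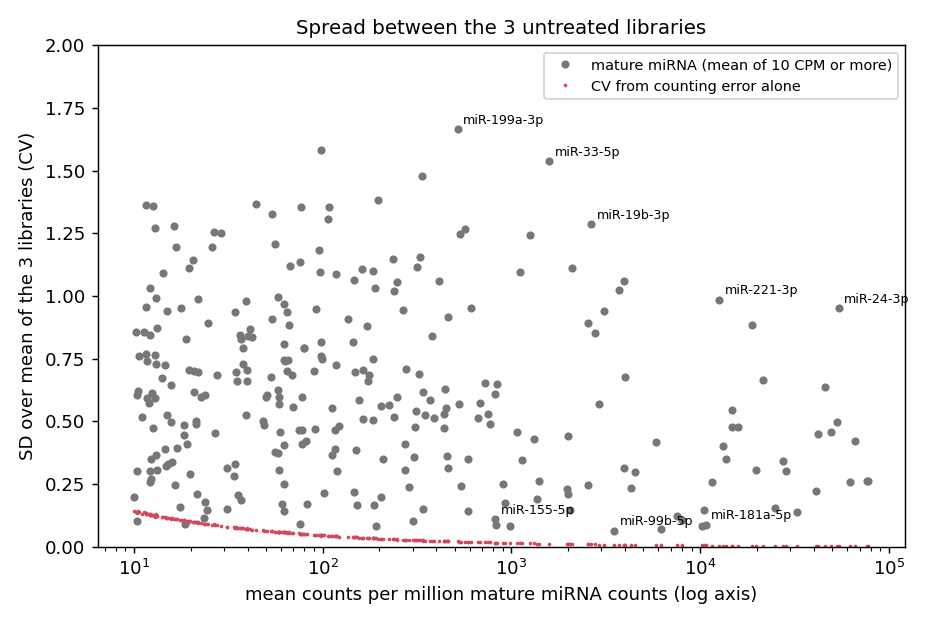
Coefficient of variation over the 3 libraries against mean level in CPM (log axis) for each mature miRNA with a mean of at least 10 CPM, with the CV that counting error alone would give in red. Labelled miRNAs are examples, and miR-199a-3p and miR-33-5p reach 1.66 and 1.54. The sum of miR-199a-3p and miR-199b-3p, of identical sequence, has a CV of 0.616.

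Mature miRNAs were the largest of 14 RNA classes, though repeats, introns, exons and intergenic sequence together held more. They held 37.8%, 35.1% and 39.3% of counted reads, 37.4% ± 2.14 (SD, n = 3). Reads assigned to repeats, introns, exons and intergenic sequence held 48.6%, 55.1% and 46.97%, highest in library 2, where introns held 13.8% against 10.6% and 11.5% in libraries 1 and 3. The authors' table gives each of these classes as a single value, so its genes cannot be named. rRNA held 5.98%, 3.73% and 5.62%, lowest in library 2.

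miRNA precursor families of the Rfam database held 2.45%, 2.01% and 4.52% of counted reads. Together with mature and predicted miRNAs and hairpins they held 40.5%, 37.2% and 44.03%. The mir-23 precursor family was first at 87161, 65741 and 207255 counts, highest in library 3, which was 21.7%, 11.02% and 48.7% of the family's precursor and mature counts together. The mir-221 precursor family had 113642, 96534 and 128026 counts, or 29.6%, 24.7% and 33.98% of its family. The let-7 precursors, given because let-7 led the mature families, gave 0.987%, 0.327% and 0.616% of theirs. Where precursor counts were added, let-7 still led with 17.7% ± 2.76 of mature and precursor counts, mir-27 held 11.2% ± 3.09, mir-23 8.81% ± 2.30 and mir-221 7.10% ± 0.704. The table does not give the arm from which precursor reads came.

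**Figure D5:**
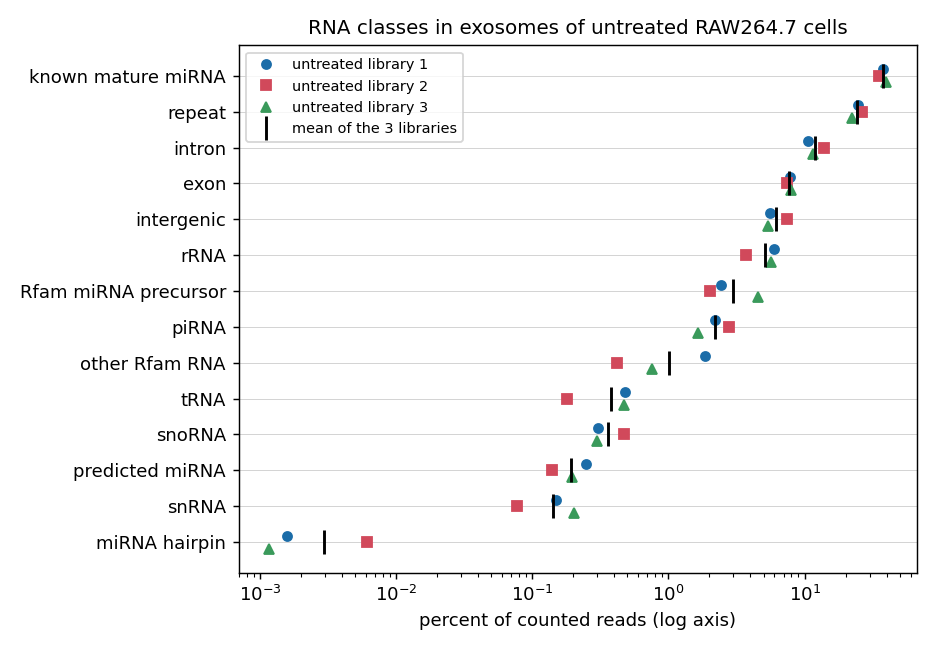
Share of counted reads in each RNA class, in percent on a log axis, with 1 marker for each of the 3 libraries and a vertical bar at their mean. Mature miRNAs lie between 35.1% and 39.3%, while the other Rfam RNAs are spread from 0.416% to 1.86%.

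The other small RNAs are given as counts per 1000000 counted reads (RPM), which measure fragments and were not divided by length. Among rRNAs, 5.8S rRNA led with 42937, 25990 and 33578 RPM. Y RNA, a short RNA bound by the Ro60 protein and a known component of vesicle RNA, was at 12837, 2676 and 5480 RPM. The RNA of the signal recognition particle was at 1824, 167 and 119 RPM. tRNA was at 4833, 1801 and 4694 RPM. Both Y RNA and tRNA were lowest in library 2, and the signal recognition particle RNA was high in library 1 alone. In the spliceosome, U1 RNA was at 942, 271 and 946 RPM and U6 RNA at 474, 425 and 984 RPM. Among small nucleolar RNAs, SNORD10 was at 719, 2063 and 470 RPM, highest in library 2, and U3 at 862, 185 and 1089 RPM, lowest in it.

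PIWI-interacting RNAs (piRNAs) silence transposons in the germ line, and the class named piRNA held 2.18%, 2.80% and 1.65% of counted reads here. Predicted features gave 83.3%, 90.6% and 90.7% of its counts. Of 5095 features listed in any library, 462 were listed in all 3. Grouped by position after their values were seen, 56 predicted features within chr17:39842998-39843163 held 27.3%, 33.4% and 33.04% of the class. The GENCODE M21 annotation of mm10 has an exon of the long noncoding RNA Gm26917 there, and an rRNA gene, CT010467.1, lies 3190 bases away at 39846353 to 39848827. A second group, at chr5:17118211-17118485, held 22.9%, 14.1% and 28.1%. The repeat named with each predicted feature was an LTR element for 48.8%, 54.02% and 47.99% of the class and a DNA element for 27.8%, 33.5% and 33.7%. Whether these predicted piRNAs are PIWI-bound was not measured.

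Predicted miRNAs outside the known set held 0.246%, 0.139% and 0.196% of counted reads. The leading one, at chr11:69063543-69063590, had 206, 245 and 144 RPM and overlaps the tRNA gene n-TWcca6 in RefSeq. The next lay at chr2:28495932-28495983 in Gbgt1, and another at chr16:57391486-57391536 in an intron of Filip1l.

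Levels of miRNA markers of cell types are listed next, as a description and not as a test of the cell label. Of 18 myeloid markers 16 were listed, 15 in all 3 libraries, with a summed level of 357498, 342905 and 302837 CPM, most of it from miR-23a-3p, miR-27a-3p, miR-24-3p and miR-146a-5p, which many cell types express. The blood-lineage markers were present at low levels: miR-223-3p at 107, 178 and 53.9 CPM, miR-142a-3p at 28.0, 218 and 43.3 CPM and miR-142a-5p at 32.6, 179 and 85.4 CPM. All 3 were highest in library 2. The names miR-424-5p and miR-147-3p were not listed in any library. A molecule counted under another name would be missed by this, so their absence as molecules was not shown. miR-511-3p was listed in library 2 alone, at 0.991 CPM.

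Markers of other cell types were lower in sum than the myeloid list. That list is longer and holds leading, widely expressed miRNAs, so the order of the sums does not test the cell label. The 6 red blood cell and serum markers, all listed, summed to 4800, 6034 and 5871 CPM, led by miR-320-3p at 3561, 5431 and 3850 CPM; miR-451a, the defining red blood cell miRNA, was at 592, 172 and 554 CPM. Of 4 liver markers, all listed, the sum was 1129, 679 and 1623 CPM, mostly the hepatocyte miRNA miR-122-5p at 870, 296 and 1292 CPM. miR-451a and miR-122-5p were thus both lowest in library 2. Both lay above miR-223-3p in libraries 1 and 3, and in library 2 miR-122-5p did while miR-451a did not. The 8 epithelial markers summed to 271, 245 and 307 CPM and 6 neuronal markers to 507, 614 and 890 CPM. Of 5 muscle markers 3 were listed, with sums of 29.4, 41.8 and 37.4 CPM and miR-206-3p and miR-208a-3p at 0. Of 8 mesenchymal and endothelial markers 7 were listed, with sums of 566, 505 and 2237 CPM, the last mostly miR-199a-3p. miR-199b-3p, of identical sequence but not on the list, was at 507, 618 and 16.8 CPM. The 2 names together came to 517, 650 and 1539 CPM, so the listed sums of libraries 1 and 2 leave out most of this molecule. miR-145a-5p was at 0 and miR-126a-3p, the endothelial miRNA, at 522, 419 and 678 CPM. The 3 lymphocyte markers summed to 20537, 17740 and 17852 CPM, nearly all miR-181a-5p and miR-181b-5p. The part of other cell types or of serum in these levels was not tested.

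By sequence, the cargo leaned to miRNAs that begin with U, a base that Argonaute proteins bind well at the 5′ end. They held 70.5%, 56.1% and 65.04% of the counts with a matched sequence, lowest in library 2, where miRNAs that begin with A held 35.9% against 23.3% and 29.8% in libraries 1 and 3. Of the 128 matched miRNAs with a mean of at least 100 CPM, 45.3% begin with U, against 40.9% of the 1679 mature names in the reference, so the excess of U was by counts more than by names. GGAG, searched on the mature strand as letters described for vesicle sorting, was in 9 of the 128, or 7.03%, and in 14.2% of the reference names. miRNAs with it held 2.87%, 1.75% and 2.24% of counts, led by let-7k. CCCU, searched in the same way, was in 5.47% of the 128 and 11.4% of the reference, and its miRNAs held 1.21% ± 0.329 of counts, led by miR-423-3p. A match of letters is a description and does not show that a sorting protein bound them.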

How the data were processed

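The deposited tables hold raw read counts per small RNA feature, with its class, for each library, per the file headers. Trim Galore, Bowtie, HTSeq and the build mm10 stand in the submitters' processing notes; versions, settings, strand use and how the authors assigned reads that match several features are not given in the sources used here. A second deposited value column was not used. From the counts, CPM was computed per 1000000 mature miRNA counts and RPM per 1000000 counted reads, with Python 3.11.15, pandas 2.3.3 and numpy 2.4.6. SDs and CVs are over 3 libraries; no contrast exists and no hypothesis test was run. edgeR 4.0.16 (TMM factors, intercept only) estimated the biological coefficient of variation, and DESeq2 1.42.0 size factors were an alternative; the script was tested on simulated data. Sequences came from RefSeq, matched by name, and figures from matplotlib 3.10.9.

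Named miRNAs are the 20 with the highest mean CPM, the 10 leading seed families with up to 3 members, hairpins of the leading miRNAs, exceptions to the guide list, hairpins whose leading arm differed between libraries, and the 10 lowest and 10 highest CVs from 100 CPM. For other classes they are the 3 leading features, and for marker lists the 4 leading members and any at 0. Further names are said to be chosen after their values were seen or illustrate libraries standing apart. Members and lists were chosen with earlier results of these data known. Depth was 4414054 to 5712322 mature miRNA counts; with 3 libraries, SDs are themselves imprecise.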

Additional observations from a re-analysis of the deposited data

How the results depend on the processing

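Of 38 alternatives over 7 results, 35 stayed within 1 SD or 1.5 times of the reported value. For the shares the limit was 1 SD over the libraries. Leaving out 1 of 3 libraries can hardly move a mean that far, so those alternatives could hardly fail. Adding Rfam precursor families, chosen after seeing the data, moved the mature share from 37.4% to 40.4%. The median CV of 0.575 became 1.01 with no filter on low levels and lay between 0.302 and 0.609 when libraries were left out in turn, lowest without library 2. Merging names of identical sequence, also chosen after seeing the data, gave 0.567. Leaving out libraries gave 36.4% to 38.6% for the mature share, 55.4% to 60.6% for the first 10, 17.9% to 20.8% for the let-7 family, 67 to 68 guides, and 0.508 to 0.725 for the biological coefficient of variation. Without a filter on low counts that coefficient was 0.990 against 0.663, and was counted as within 1.5 times. The 459 names listed in all 3 libraries became 335 with a minimum of 10 counts, so low counts limit that number. No paired analysis was possible because there is 1 group and no contrast.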

Other observations

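Rfam models named for bacteria or archaea, together with transfer-messenger RNA, a bacterial RNA, held 0.717%, 0.129% and 0.440% of counted reads in libraries 1, 2 and 3; these models were picked after their values were seen. The bacterial small subunit rRNA model had 2530, 146 and 1732 RPM and transfer-messenger RNA had 2032, 934 and 947 RPM, both lowest in library 2. Where these reads came from was not tested.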
